A study of Mus musculus with 9 samples.

Results

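The multimerins Mmrn1 and Mmrn2 and the lectins Cd93, Clec14a and Cd248 were followed through RNA-seq of bone marrow (BM) endothelial cells (ECs), as the rows of the deposited read count table that carry these 5 gene names, out of 46078 genes. Both fractions came from wild type B6 mice and were sorted as CD45-Ter119-CD31+ cells, and by their labels they differed in the Sca-1 gate, with 4 Sca-1+ libraries (label endings 7, 13, 15 and 19) and 5 Sca-1- libraries (8, 10, 14, 16 and 22). No age, sex or number of mice per library was given, so the p-values measure the spread between these libraries. The titles of libraries 15 and 16 share a number that may name a mouse, which the sources used here do not state. The titles tag libraries 13, 14 and 22 with CD452, library 10 with a shorter form of it and libraries 8, 15, 16 and 19 with wt, while library 7 has neither tag, and the sources used here do not explain these tags. The comparison addresses how the transcriptomes of the fractions differ, which the study takes as arteriolar (Sca-1+) and sinusoidal (Sca-1-) ECs.

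Multimerins belong to the EMILIN family, secreted glycoproteins with coiled coils and a C1q-like end that assemble into large disulfide-linked polymers. Mmrn1, multimerin 1, is stored in platelet granules with coagulation factor V and is also made by ECs. Mmrn2, multimerin 2, is laid down in the matrix around blood vessels, where it is a ligand of lectins of the C-type lectin group XIV. This group holds CD93 and CLEC14A, both found on ECs, and CD248 (endosialin), best known from pericytes and fibroblasts. It also holds thrombomodulin, which switches thrombin to an anticoagulant enzyme.

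The labelled cell type was checked before the members were read. Of 12 general endothelial genes, 11 were higher in Sca-1+ ECs. The summed level of the 12 was 4587 to 5794 CPM (read counts scaled to a common library size with TMM factors) in Sca-1+ libraries against 443 to 1363 CPM in Sca-1- libraries. Myct1, the 1 gene that did not pass, had a mean of 281 ± 23.7 CPM in Sca-1+ and 507 ± 428 CPM in Sca-1- ECs (SD, n = 4 and 5). It makes up a large part of the Sca-1- sum, which therefore understates the difference of the other genes. Cdh5, which encodes the junctional VE-cadherin, stood at 264 ± 27.2 CPM in Sca-1+ and 7.14 ± 3.92 CPM in Sca-1- ECs (SD, n = 4 and 5). All 12 megakaryocyte and platelet genes were lower in Sca-1+ ECs, and they took 0.00317% to 0.00963% of the counts there against 2.88% to 6.04% in Sca-1- libraries. They summed to 24786 to 104188 CPM in Sca-1- libraries, far above the endothelial sum there, and Col1a1 had a mean of 12160 CPM in that fraction. The name Sca-1- ECs is therefore used here as the label of the fraction, and its values are not those of ECs alone. Of 8 leukocyte genes 6 were lower in Sca-1+ ECs, and of 10 mural genes 8 were higher. All 6 sinusoidal genes were higher in Sca-1+ ECs, with a median log2 fold change of 4.18 beside 5.07 for the general endothelial genes, so their raw levels move with the endothelial genes as a whole and do not tell the fractions apart as sinusoidal or not. Total counts were 21581653 to 25959818 per library, so that 3 counts, the floor used here, correspond to 0.0996 to 0.209 CPM. These floors cover counting error only, because the libraries hold no molecular identifiers. The labels open with running numbers that form a separate series in each fraction, and such a series and the fraction cannot be told apart. In sorted bulk samples fewer cells of a type and less RNA per cell cannot be told apart either.

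The sequence upstream of the start was read for the 2 members with an entry in the RefSeq promoter table, Mmrn1 and Clec14a, which lie on opposite sides of the comparison. Capitals mark the matches to any of 5 cores of 6 letters searched on both strands. They were AGGAAG for ETS factors, likewise CCGGAA for ETS factors, AGATAA for factors of the GATA family, likewise TGATAA for that family, and AACAAT for SOX factors.
Mmrn1, GRCm38.p6 chr6:60944067-60944316, plus strand: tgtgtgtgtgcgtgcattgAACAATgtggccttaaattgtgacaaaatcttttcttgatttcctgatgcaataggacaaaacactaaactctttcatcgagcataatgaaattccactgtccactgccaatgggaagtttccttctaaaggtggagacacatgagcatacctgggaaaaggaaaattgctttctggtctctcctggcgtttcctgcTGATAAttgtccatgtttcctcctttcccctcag
Clec14a, GRCm38.p6 chr12:58269291-58269508, minus strand: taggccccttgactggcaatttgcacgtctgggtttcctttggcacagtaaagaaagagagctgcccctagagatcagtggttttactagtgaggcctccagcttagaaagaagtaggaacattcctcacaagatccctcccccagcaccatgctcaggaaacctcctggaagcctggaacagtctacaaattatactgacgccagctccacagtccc
The 250 bases before the RefSeq start of Mmrn1 hold TGATAA, which begins 34 bases before the start, and AACAAT, which begins 231 bases before it. TGATAA is found in 7.94% and AACAAT in 9.42% of 32851 promoter windows of the same length. The same 250 bases of Clec14a hold none of the 5 cores, and the other 3 are found in 29.5% (AGGAAG), 12.03% (CCGGAA) and 9.99% (AGATAA) of the windows. The RefSeq start of Mmrn1 lies 159 and 161 bases before the starts of its 2 protein-coding GENCODE transcripts. It lies within a further GENCODE transcript of the retained intron type (chr6:60924976-60946118), so the printed bases may be intron of that transcript, and the positions of both matches hold for the RefSeq start only. The 32 bases of the Clec14a window that follow its GENCODE start are not shown. A match is a description of these letters and names no bound factor.

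Of the 5 members, Mmrn2, Cd93 and Clec14a were higher and Mmrn1 was lower in Sca-1+ ECs, and Cd248 did not pass the test. All 5 were kept by the filter on low counts. The two-sided quasi-likelihood test of edgeR was used, and p-values were adjusted by Benjamini-Hochberg over the 15937 genes tested. The fractions differ widely, and 44.8% of these genes passed in either direction, 23.3% as higher and 21.4% as lower in Sca-1+ ECs. The higher genes were 52.1% of the calls, or 63.1% where counts were scaled by library size alone. In 3 members every Sca-1+ library lay above every Sca-1- library, and in 1 every Sca-1+ library lay below, where all tested genes gave 24.8% and 18.8%. These 4 members therefore differed the same way among the libraries tagged CD452 or its shorter form and among those tagged wt. With a background of this size, the counts of members called set nothing apart, and the results are in the sizes and the order below.

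**Figure D1:**
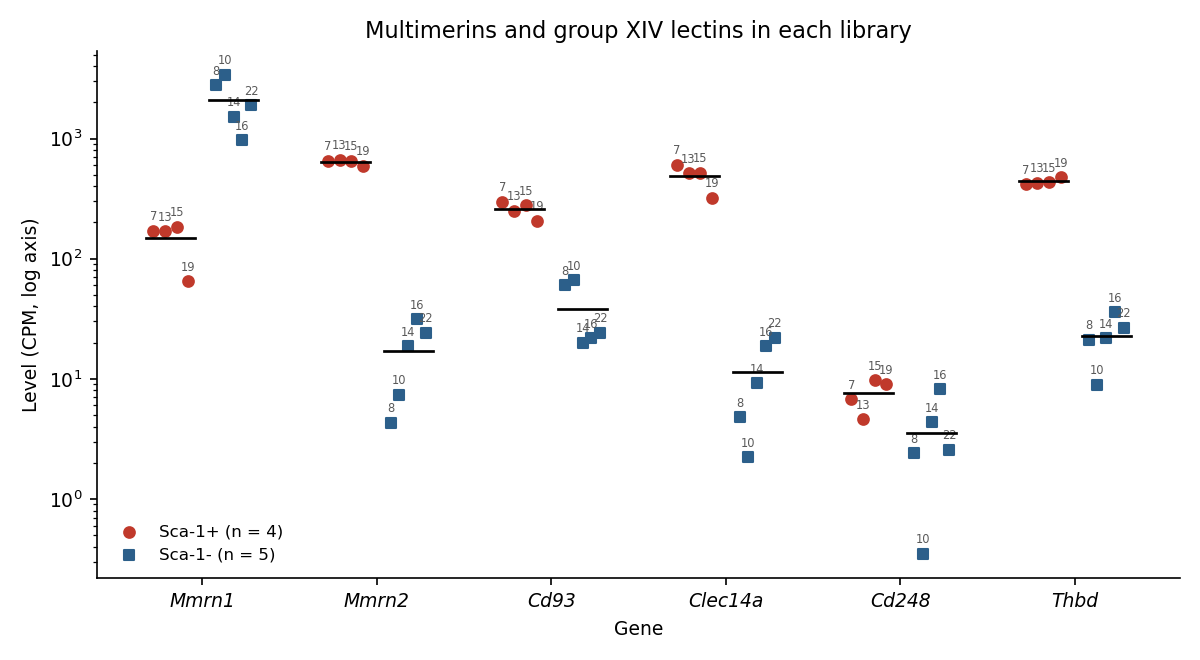
Level of the 5 members and of Thbd in each library, in CPM on a log axis, with circles for Sca-1+ libraries, squares for Sca-1- libraries, bars at the means of the fractions and the label endings above the points. The 4 Sca-1+ libraries sit between 592 and 664 CPM for Mmrn2 and the 5 Sca-1- libraries between 4.33 and 31.3 CPM, while Mmrn1 is turned the other way and Cd248 overlaps.

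Mmrn1 (ENSMUSG00000054641, chr6:60924976-60989378, plus strand) was counted at 171, 170, 184 and 64.9 CPM in Sca-1+ libraries 7, 13, 15 and 19. In Sca-1- libraries 8, 10, 14, 16 and 22 it was counted at 2767, 3397, 1515, 967 and 1899 CPM. The fractions did not overlap, and library 19 stood well under the other Sca-1+ libraries. The mean was 148 ± 55.5 CPM over the 4 Sca-1+ libraries and 2109 ± 974 CPM over the 5 Sca-1- libraries (± SD), which edgeR fitted as -3.84 ± 0.50 (SE) on the log2 scale (adjusted p = 0.00022 in edgeR's test), or a level 14.3-fold lower in Sca-1+ ECs.

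Mmrn2 (ENSMUSG00000041445, chr14:34375465-34404287, plus strand), its vascular relative, ran opposite. It was counted at 656, 664, 656 and 592 CPM in the Sca-1+ libraries in the same order, and at 4.33, 7.40, 18.6, 31.3 and 24.2 CPM in the Sca-1- libraries. The Sca-1+ libraries were close together, and Sca-1- libraries 8 and 10, the highest for Mmrn1 in these TMM-scaled CPM, were the lowest for Mmrn2. The mean was 642 ± 33.4 CPM over the 4 Sca-1+ libraries and 17.2 ± 11.3 CPM over the 5 Sca-1- libraries (± SD), which edgeR fitted as 5.22 ± 0.56 (SE) on the log2 scale (adjusted p = 8.3e-05 in edgeR's test), or 37.3-fold.

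Between the multimerins, the balance turned over. Scaled by the length of their exons, Mmrn1 made 13.2% ± 4.21 (SD, n = 4) of the multimerin level in Sca-1+ ECs, with 6.90% in library 19 as the lowest and 15.98% as the highest. In Sca-1- ECs it made 98.3% ± 1.75 (SD, n = 5), with 95.4% as the lowest. The log2 ratio of Mmrn1 to Mmrn2 in CPM was between -3.19 and -1.83 in Sca-1+ libraries and between 4.94 and 9.29 in Sca-1- libraries. The difference was -9.37 on the log2 scale (exact two-sided permutation test over all 126 assignments of 4 and 5 libraries, p = 0.0079, the smallest these libraries allow, and 0.019 after Benjamini-Hochberg adjustment over the 12 ratios tested). Each gene already separated the fractions, in opposite directions. The ratio therefore had to separate them as well, and its p-value adds no support.

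**Figure D2:**
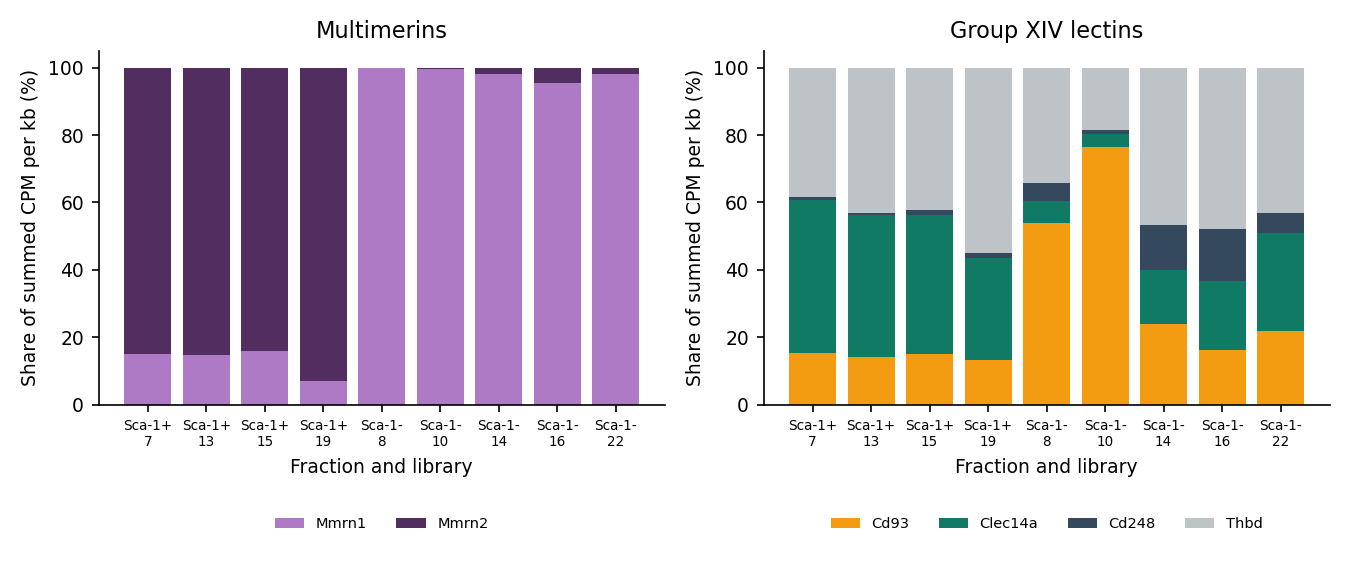
Share of the summed length-scaled level (CPM per kb of exon) that each gene takes in each library, for the multimerins (left) and for the group XIV lectins (right), as stacked bars that add to 100%. Mmrn2 takes 84.0% to 93.1% of the multimerin level in Sca-1+ libraries and 0.230% to 4.56% in Sca-1- libraries, and Cd93 takes 76.6% of the lectin level in Sca-1- library 10.

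Among the lectin receptors, Clec14a (ENSMUSG00000045930, chr12:58264720-58269290, minus strand) was higher in Sca-1+ ECs by a fold close to that of Mmrn2. It was counted at 605, 512, 520 and 322 CPM in Sca-1+ libraries 7, 13, 15 and 19 and at 4.81, 2.23, 9.16, 18.7 and 21.99 CPM in Sca-1- libraries 8, 10, 14, 16 and 22. No Sca-1- library came near the Sca-1+ range, and libraries 8 and 10 were again the lowest. The mean was 490 ± 120 CPM over the 4 Sca-1+ libraries and 11.4 ± 8.64 CPM over the 5 Sca-1- libraries (± SD), which edgeR fitted as 5.42 ± 0.65 (SE) on the log2 scale (adjusted p = 0.00014 in edgeR's test), or 42.8-fold. The 95% interval of the log2 fold change, 3.98 to 6.86, covers much of that of Mmrn2, 3.97 to 6.47.

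Cd93 (ENSMUSG00000027435, chr2:148436640-148443563, minus strand) was higher in Sca-1+ ECs as well, by a smaller fold. Its Sca-1+ values were 297, 252, 278 and 208 CPM, and its Sca-1- values were 60.2, 66.0, 19.9, 21.8 and 24.2 CPM. Here Sca-1- libraries 8 and 10, the lowest for Mmrn2 and Clec14a, were the highest. The mean was 259 ± 38.8 CPM over the 4 Sca-1+ libraries and 38.4 ± 22.7 CPM over the 5 Sca-1- libraries (± SD), which edgeR fitted as 2.75 ± 0.41 (SE) on the log2 scale (adjusted p = 0.00046 in edgeR's test), or 6.74-fold.

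Cd248 (ENSMUSG00000056481, chr19:5068078-5070682, plus strand), the lectin of pericytes and fibroblasts, was low in both fractions. Its values were 6.78, 4.63, 9.74 and 9.06 CPM in the Sca-1+ libraries and 2.40, 0.349, 4.37, 8.17 and 2.57 CPM in the Sca-1- libraries, where 0.349 CPM in library 10 stands for 5 counts. The fractions overlapped, with library 16 above 2 of the Sca-1+ libraries. The mean was 7.55 ± 2.32 CPM over the 4 Sca-1+ libraries and 3.57 ± 2.94 CPM over the 5 Sca-1- libraries (± SD), and the log2 fold change was 1.07 ± 0.67 (SE; adjusted p = 0.22 in edgeR's test). Its 95% interval ran from -0.41 to 2.55, so that a difference in either direction was not resolved.

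Thbd (thrombomodulin), the remaining lectin of the group, was counted at 416 to 478 CPM in Sca-1+ libraries and at 8.94 to 35.8 CPM in Sca-1- libraries, fitted as 4.26 ± 0.36 (SE) on the log2 scale (adjusted p = 2.9e-05 in edgeR's test). Its fold lay between those of Cd93 and Clec14a. Of the 4 lectins, 3 were therefore higher in Sca-1+ ECs and Cd248 did not pass.

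Levels were compared between genes only per kb of exon. In Sca-1+ ECs the order was Mmrn2 at 162 ± 8.39, Thbd at 118 ± 7.24, Clec14a at 107 ± 26.1, Cd93 at 38.7 ± 5.82, Mmrn1 at 25.2 ± 9.46 and Cd248 at 2.90 ± 0.891 CPM per kb (SD, n = 4). Mmrn2 was above Thbd, Clec14a above Cd93 and Mmrn1 above Cd248 with no overlap of their ranges, while the ranges of Thbd and Clec14a, and of Cd93 and Mmrn1, overlapped. In Sca-1- ECs Mmrn1 came first at 359 ± 166 CPM per kb, apart from all others, which followed at 6.14 ± 2.62 (Thbd), 5.76 ± 3.40 (Cd93), 4.32 ± 2.85 (Mmrn2), 2.49 ± 1.89 (Clec14a) and 1.37 ± 1.13 (Cd248) CPM per kb (SD, n = 5). Neighbours among those 5 overlapped in range. Within libraries Mmrn2 was above Clec14a in 5 of 5 Sca-1- libraries, whereas Cd93 was above Mmrn2 in 2 of 5, libraries 8 and 10.

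As shares of the lectin level per kb, Clec14a took 39.7% ± 6.61 and Cd93 14.5% ± 0.912 in Sca-1+ ECs (SD, n = 4). In Sca-1- ECs Clec14a took 15.1% ± 10.3 and Cd93 38.5% ± 25.9 (SD, n = 5). The share of Cd93 ran from 16.2% in library 16 to 76.6% in library 10 among Sca-1- libraries, but only from 13.3% to 15.3% among Sca-1+ libraries. Cd248 took 1.10% ± 0.386 and 8.31% ± 6.03.

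Cd93 differed less between the fractions than Mmrn2 and Clec14a did. The log2 ratio of Cd93 to Mmrn2 was -1.51 to -1.14 in Sca-1+ libraries and -0.52 to 3.77 in Sca-1- libraries, a difference of -2.62 (exact permutation test, p = 0.032, adjusted p = 0.038). That of Cd93 to Clec14a was -1.03 to -0.63 and 0.14 to 4.84, a difference of -2.88 (exact permutation test, p = 0.024, adjusted p = 0.036). In Sca-1- library 8 both ratios were above 3, as in library 10, and in libraries 14, 16 and 22 they were between -0.52 and 1.11. Without any 1 Sca-1+ library these adjusted p-values were 0.086 to 0.11, where 3 libraries against 5 allow 56 assignments.

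The ratio of Clec14a to Mmrn2 was -0.88 to -0.12 on the log2 scale in Sca-1+ libraries and -1.69 to 0.15 in Sca-1- libraries, a difference of 0.26 (exact permutation test, p = 0.56, adjusted p = 0.56). This is within the spread of the ratio among Sca-1- libraries (SD 0.73, n = 5), which rests on 32 to 943 counts per gene. Cd248 relative to Mmrn2 differed by -4.02 (exact permutation test, p = 0.0079, adjusted p = 0.019). Mmrn2 alone separates the fractions, with a log2 CPM of 9.21 to 9.38 in Sca-1+ and 2.14 to 4.97 in Sca-1- libraries. Cd248 on its own did not pass, so this p-value in large part reflects Mmrn2.

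**Figure D3:**
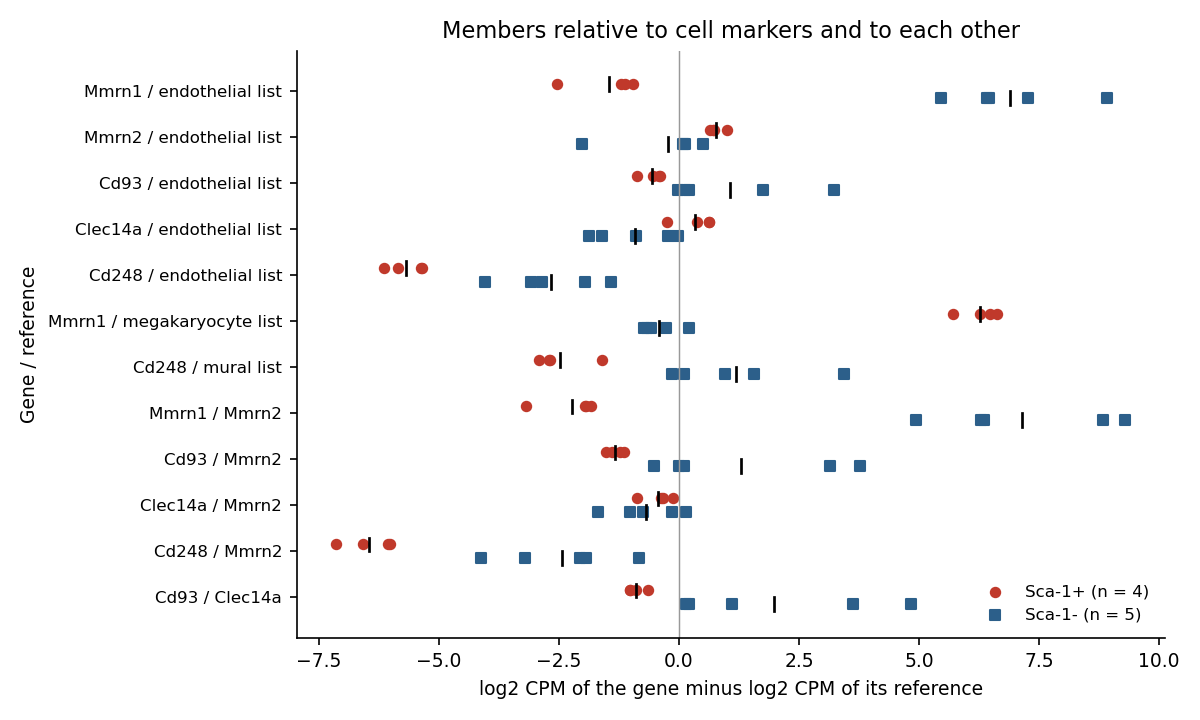
Log2 CPM of each member minus log2 CPM of its reference in each library (x axis, no unit), for the 12 ratios tested, with circles for Sca-1+ libraries, squares for Sca-1- libraries and bars at the means. Clec14a to Mmrn2 is the ratio whose means lie closest, 0.26 apart, and Mmrn1 to Mmrn2 is the one farthest apart, by 9.37.

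The members were next read against the mean of the 12 general endothelial genes, of which Kdr also stands among the ligands and effectors below. Mmrn2 was 1.01 higher on the log2 scale in Sca-1+ ECs (exact permutation test, p = 0.016, adjusted p = 0.027), but the call was lost without any 1 Sca-1+ library (adjusted p = 0.086 to 0.12 in the exact test) and at 0.47 (adjusted p = 0.75) with the median of the list. It was also lost at 0.56 (adjusted p = 0.36) without Myct1, the 1 gene of the list that did not pass, an alternative chosen after seeing the data. Without Sca-1- library 8 the value was 0.56 (adjusted p = 0.034). Clec14a was 1.27 higher with overlapping fractions (exact permutation test, p = 0.048, adjusted p = 0.052). Cd93 was the other way, at -1.62 relative to the list (exact permutation test, p = 0.032, adjusted p = 0.038), or -1.07 without Sca-1- library 10. The call of Cd93 was lost without any 1 Sca-1+ library (adjusted p = 0.12 to 0.14 in the exact test). Cd248 was also the other way, at -3.01 (p = 0.016, adjusted p = 0.027 in the same exact test). The list mean alone separates the fractions and Cd248 on its own did not pass, so this p-value in large part reflects the list. The largest of these differences was that of Mmrn1, at -8.36 (exact permutation test, p = 0.0079, adjusted p = 0.019). Mmrn1 and the list mean separate the fractions in opposite directions, so the ratio of Mmrn1 to the list had to separate them too. The endothelial list stood at a mean log2 CPM of 2.82 in Sca-1- library 10, the lowest, and at 4.11 to 4.47 in the other Sca-1- libraries.

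The platelet multimerin was set beside 12 megakaryocyte and platelet genes, among them Pf4 (platelet factor 4). Their log2 fold changes were -11.73 to -8.86, with a median of -10.59, where that of Mmrn1 was -3.84. Their summed level was 28.3 to 79.1 CPM in Sca-1+ libraries, and 24786 to 104188 CPM in Sca-1- libraries. In CPM, not scaled by length, Mmrn1 equalled 215% to 349% of that sum in Sca-1+ libraries and 2.95% to 5.49% of it in Sca-1- libraries. The log2 ratio of Mmrn1 to the mean of the list was 5.71 to 6.62 and -0.72 to 0.20, a difference of 6.68 or 102-fold (exact permutation test, p = 0.0079, adjusted p = 0.019), so Mmrn1 fell by less than these genes did.

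Across the Sca-1- libraries Mmrn1 in CPM was highest in libraries 10 and 8, which also held the most of the megakaryocyte genes, at 104188 and 84518 CPM, and lowest in library 16, which held the least. These CPM rest on TMM factors of 0.581 (library 10) and 0.671 (library 8), against 0.988 to 1.16 in the other Sca-1- libraries. Before TMM scaling, Mmrn1 took its largest share of the total counts in library 22, with 46640 of 21581653. Library 10 had 48655 of 24686652, so the order of the libraries for Mmrn1 depends on the scaling. Cd93 was highest in libraries 10 and 8, and Mmrn2 and Clec14a were highest in libraries 16 and 22. Among Sca-1+ libraries, library 19 was lowest for Mmrn1, Mmrn2, Cd93 and Clec14a, while Thbd was highest there. The summed level of 6 sinusoidal genes was 994 CPM in library 19 and 1693 to 1937 CPM in the other Sca-1+ libraries, and the megakaryocyte sum was lowest there too. The part of these differences between libraries in the members' levels was not tested.

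**Figure D4:**
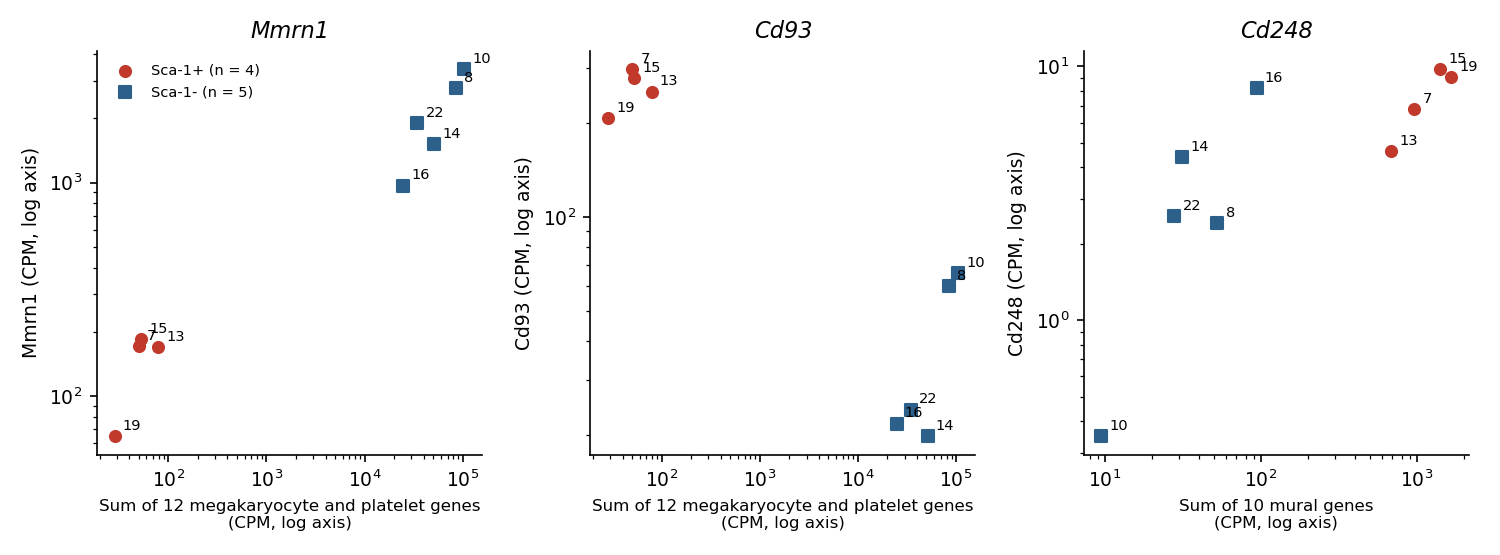
Level of Mmrn1 (left) and Cd93 (middle) against the summed level of 12 megakaryocyte and platelet genes, and of Cd248 (right) against that of 10 mural genes, per library, in CPM on log axes. Circles are Sca-1+ and squares Sca-1- libraries with their label endings, and Mmrn1 falls from 967 to 3397 CPM to 64.9 to 184 CPM while the megakaryocyte sum falls to between 28.3 and 79.1 CPM.

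Cd248 was set beside genes of mural cells, the smooth muscle and pericytes of vessel walls. The summed level of 10 mural genes was 686 to 1662 CPM in Sca-1+ libraries and 9.50 to 94.1 CPM in Sca-1- libraries, and 8 of the 10 were higher in Sca-1+ ECs, with a median log2 fold change of 4.73 over the list. Pdgfrb, a pericyte receptor, did not pass, at 23.4 ± 13.6 CPM in Sca-1+ and 4.24 ± 5.49 CPM in Sca-1- ECs (SD, n = 4 and 5), nor did Cspg4. The log2 ratio of Cd248 to the mean of the list was -2.91 to -1.61 in Sca-1+ libraries and -0.14 to 3.44 in Sca-1- libraries. This was a difference of -3.66 (exact permutation test, p = 0.0079, adjusted p = 0.019). The list mean alone separates the fractions, at a log2 CPM of 3.84 to 6.10 against -1.33 to 2.09, so this p-value in part reflects the list. In Sca-1- ECs Rgs5 was at or under 3 counts in 4 of 5 libraries and Notch3, Des and Myh11 in 3 of 5, so the list mean rests in part on the prior count. The difference was -4.11 with a prior count of 0.5 and -4.33 with the median of the list. Of 8 mesenchymal and fibroblast genes, 2 were higher and 2, Col1a1 and Col1a2, lower in Sca-1+ ECs.

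The EMILINs, the matrix relatives of the multimerins, did not split by direction as the multimerins did. Emilin2 was lower in Sca-1+ ECs, at 0.818 to 3.52 CPM against 16.2 to 232 CPM, or -5.14 ± 0.90 (SE) on the log2 scale (adjusted p = 0.0012 in edgeR's test), and library 16 alone was at 232 CPM. Without library 16 the value was -4.07. Emilin1 did not pass, with means of 78.3 ± 36.5 CPM in Sca-1+ and 150 ± 85.1 CPM in Sca-1- ECs (SD over 4 and 5 libraries) and a log2 difference of -0.94 (adjusted p = 0.13 in edgeR's test). Emilin3 was at 0 counts in 8 libraries and at 20 counts in Sca-1- library 8, and was not tested. Mmrn2 was thus the 1 member of the family higher in Sca-1+ ECs, against Mmrn1 and Emilin2 lower.

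Of 19 ligands and effectors of these proteins, 7 were higher and 7 lower in Sca-1+ ECs and 5 did not pass. Over all genes tested, 23.3% passed as higher and 21.4% as lower. The median log2 fold change was 0.17 beside 0.07 over all genes tested. On the platelet side, F5, the factor V that multimerin 1 binds, was 0.754 ± 0.450 CPM in Sca-1+ and 341 ± 185 CPM in Sca-1- ECs (SD, n = 4 and 5), a log2 fold change of -8.81. Itga2b and Itgb3, the chains of the platelet fibrinogen receptor, gave -10.16 and -8.37, and Itga2b is also one of the 12 megakaryocyte genes. Vwf, the platelet and endothelial adhesive protein, gave -3.36, from 778 ± 446 CPM (SD, n = 5) to 75.7 ± 45.3 CPM (SD, n = 4), a change of the size of that of Mmrn1.

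Around the lectins, Igfbp7, a secreted ligand of CD93, was higher, at 2939 ± 233 CPM in Sca-1+ and 53.3 ± 42.9 CPM in Sca-1- ECs (SD, n = 4 and 5), a log2 fold change of 5.78. Kdr, the VEGF receptor 2, was higher by 3.74 on the log2 scale, and Flt4, the VEGF receptor 3, by 1.97. Vegfa, the growth factor that multimerin 2 can bind, was higher by 1.51, Itga5 (integrin alpha 5) by 1.83 and Msn (moesin), a link from membrane proteins to actin, by 1.32. Gipc1, an adaptor of CD93, was lower, with a log2 fold change of -2.06, as were Cbl, a ubiquitin ligase, with -3.23, and Lgals3bp, a secreted glycoprotein, with -1.28. These 13 genes had adjusted p-values between 1.6e-05 and 0.020 in edgeR's test and no overlap between the fractions, which the rule for naming them required. Over all genes tested, 24.8% had every Sca-1+ library above and 18.8% every Sca-1+ library below. Dag1 (dystroglycan) passed with overlap, at a log2 fold change of 1.20 (adjusted p = 0.035 in edgeR's test), and Itgb1, Itgav, Fn1, Rab5c and Rhbdl2 did not pass.

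**Figure D5:**
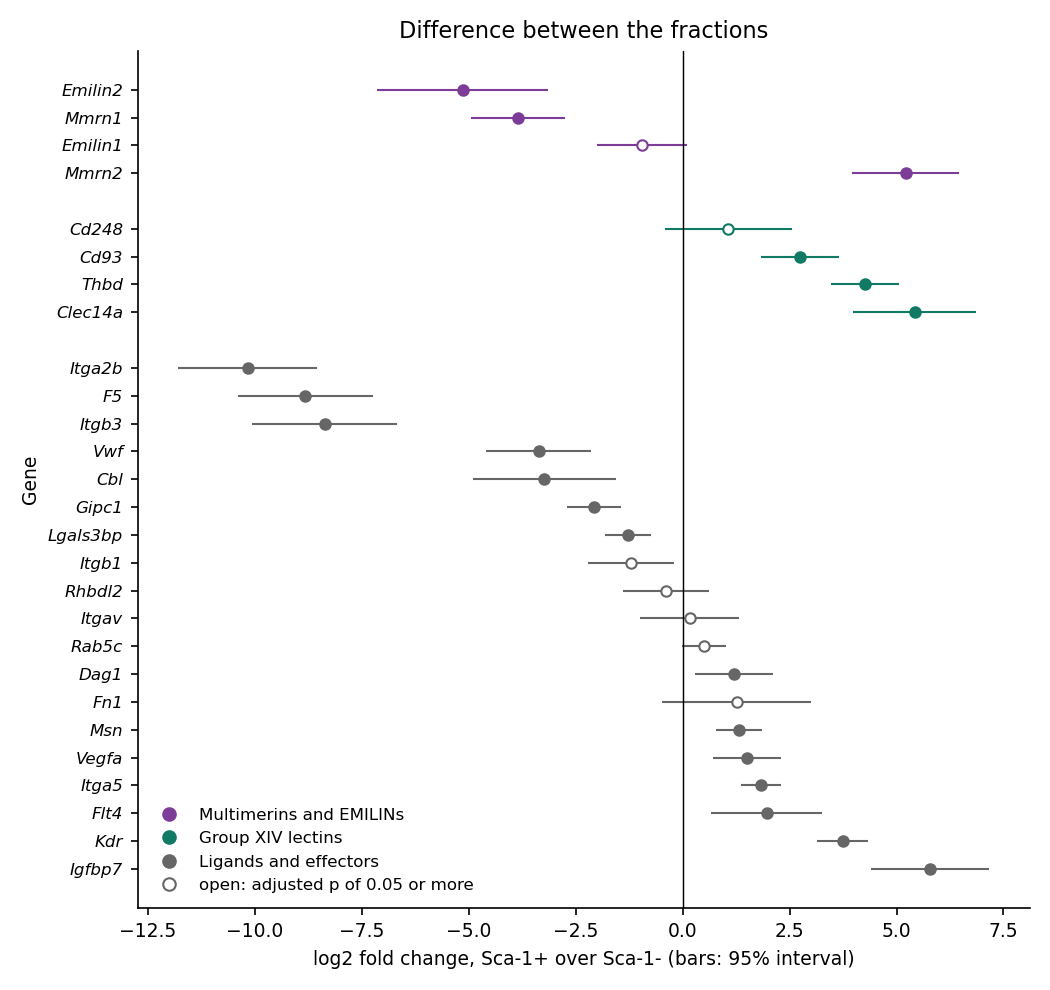
Log2 fold change of Sca-1+ over Sca-1- (x axis), with its unadjusted 95% interval computed from the F statistic of edgeR's test. The genes (y axis) are the tested ones of the EMILIN family, the group XIV lectins and the ligands and effectors. Filled points mark an adjusted p under 0.05. Mmrn2, Clec14a, Thbd and Cd93 lie to the right of 0 and Mmrn1 and Emilin2 to the left, while the intervals of Cd248 and Emilin1 include 0.

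The genes most like each member across the 9 libraries were found among 9867 tested genes with an average log2 CPM of at least 3, by the root mean square difference of log2 CPM after centring. For Mmrn2 they were Upp1 (0.36), a uridine phosphorylase, Mcam (0.36), an adhesion molecule of vessel cells, and Bace2 (0.40), a protease. For Clec14a they were Upp1 (0.40), Emcn (0.44), the endothelial sialomucin endomucin, and Slco2a1 (0.47), a prostaglandin transporter. Mmrn2 and Clec14a were 0.54 apart, with 10 genes closer to Mmrn2 and 7 closer to Clec14a. For Cd93 they were Rgl1 (0.35), Mkl2 (0.35) and Mxra7 (0.40), and 1017 genes were closer to Mmrn2 than Cd93 was, at 1.87.

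For Mmrn1 they were Dnmt3a (0.23), a DNA methyltransferase, Glipr2 (0.30) and Klhl6 (0.38). Dnmt3a was at 12.7 ± 3.22 CPM in Sca-1+ and 195 ± 71.5 CPM in Sca-1- ECs (SD, n = 4 and 5). This distance keeps the difference between the fractions. Genes of the megakaryocyte list, at log2 fold changes of -11.73 to -8.86, were therefore bound to be absent from these nearest 3. For Cd248 they were Trpm4 (0.47), Rcsd1 (0.52) and Fam168a (0.55).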

How the data were processed

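Per the labels, poly(A) RNA of sorted cells was made into libraries from 2 ng of RNA with a low-input full-length cDNA kit, and the submitters' processing notes name STAR, featureCounts and the build mm10. Annotation and strand use are not given in the sources used here. The authors deposited 1 table of raw read counts, whole numbers by gene and library. Reads shared between near-identical genes could be split, but no member's exons overlap another gene in GENCODE M21 (45229 of 46078 identifiers matched), and at most 2.03% of a member's 31-base words occur in another gene's transcripts (Cd93).

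The fit was made with edgeR 4.0.16 (R 4.3.3) by filterByExpr (minimum count 10, minimum total 15), TMM and the two-sided quasi-likelihood test, and p-values were adjusted by Benjamini-Hochberg over 15937 genes with a threshold of 0.05. The steps were tested on simulated data. CPM used TMM-scaled library sizes, and log2 CPM a prior count of 2. Ratios per library were compared by an exact permutation test over 126 assignments of libraries, adjusted over 12 ratios. Depth was 21581653 to 25959818 counts per library, with a floor of 3 counts.

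Named genes were the 5 members, the rest of their families, the ligands and effectors that passed without overlap (the others are counted and listed), for each member the 3 genes nearest to it, and the defining markers Cdh5, Pf4, Pdgfrb, Ptprc and Pecam1. Dag1, Itgb1, Itgav, Fn1, Rab5c, Rhbdl2, Myct1, Cspg4, Rgs5, Notch3, Des, Myh11, Col1a1, Col1a2 and Prox1 were named after their values were seen. Another gene that the rule names is not reported here. The members and lists were chosen with earlier results of these data known. Alternatives changed the normalization, filter, prior count, test (DESeq2 1.42.0, limma 3.58.1 voom), list summary, libraries and a replicate block. Plots were drawn with matplotlib 3.10.9.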

Additional observations from a re-analysis of the deposited data

Results flagged for a closer look

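Samples far from the rest of their group were sought by Dixon's test in 42 sets of 4 or 5 values, where chance flags about 1 in 20. In Sca-1+ ECs library 19 stood apart for Mmrn1, at a log2 CPM of 6.02 against 7.41 to 7.53 in the others. It also stood apart for Mmrn2, at 9.21 against 9.36 to 9.38, and for the log2 ratio of Mmrn1 to Mmrn2, at -3.19 against -1.97 to -1.83. The log2 ratio of Mmrn1 to the endothelial list was -2.55 there against -1.20 to -0.97. Without library 19 the log2 fold change of Mmrn1 was -3.59 and that of Mmrn2 5.26.

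In Sca-1- ECs library 8 stood apart for the log2 ratio of Mmrn2 to the endothelial list, at -2.02 against 0.08 to 0.51. Without it the difference between the fractions was 0.56. Emilin3 was counted in library 8 alone, at a log2 CPM of 0.36 (20 counts), where 0 counts give -3.63.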

How the results depend on the processing

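The fold changes of the 5 members, Thbd, Emilin1 and Emilin2 kept their direction and their side of the threshold under all 17 alternatives. They ran from -4.07 to -3.19 for Mmrn1, 4.91 to 5.55 for Mmrn2, 2.45 to 3.34 for Cd93, 5.11 to 5.84 for Clec14a and 0.60 to 1.62 for Cd248, whose adjusted p was 0.064 to 0.48. Library size alone moved the median log2 fold change of all genes from 0.07 to 0.43. With a replicate block of libraries with consecutive label endings the count of genes called was 4439 in place of 7137, where fewer degrees of freedom remain. The deviations of those pairs from their fraction means correlated at 0.147 (7 and 8), 0.148 (13 and 14) and 0.042 (15 and 16). The other pairs across the fractions gave -0.191 (13 and 8) to 0.065 (19 and 8), so 13 with 14 and 7 with 8 were the highest. Library 15 was also nearest to 16 among the Sca-1- libraries. A pairing was therefore not settled, the main tests took none, and the block changed no member's call. Emilin2 ran from -5.48 to -4.07, the latter without Sca-1- library 16. Without 1 library at a time 5957 to 6969 genes were called.

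The ratio of Mmrn2 to the endothelial list lost its call with the median of the list (0.47) and without Myct1 (0.56), and was 0.56 to 1.19 without 1 library at a time. Without any 1 Sca-1+ library 4 ratios lost their calls. These were that of Mmrn2 and those of Cd93 to the endothelial list (-1.67 to -1.51), to Mmrn2 (-2.68 to -2.56) and to Clec14a (-2.97 to -2.84). Over the omission of any of the 9 libraries, of which the Sca-1- ones kept these calls, the last 3 were -1.88 to -1.07, -3.08 to -2.003 and -3.34 to -2.17. The other 8 ratios kept their side of the threshold under every alternative that gives a test. Cd248, at 5 to 282 counts per library, is the member whose depth limits it most.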

Other observations

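The arterial and sinusoidal lists moved with Mmrn2 and Clec14a, and the lymphatic list did not. All 8 arterial genes were higher in Sca-1+ ECs (median log2 fold change 5.28), with summed levels of 810 to 1067 CPM against 9.08 to 37.3 CPM. All 6 sinusoidal genes, Flt4 among them, were also higher in Sca-1+ ECs, with a median of 4.18 and summed levels of 994 to 1937 CPM against 15.6 to 139 CPM. Of 4 lymphatic endothelial genes 3 were lower in Sca-1+ ECs, with summed levels of 7.51 to 9.91 CPM against 49.3 to 189 CPM. Prox1, the 1 of them that did not pass, had a log2 fold change of -0.81 (adjusted p = 0.14 in edgeR's test).

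Among marker lists of blood cells, 7 of 8 early B cell genes were lower and 1 was higher in Sca-1+ ECs. Of 6 monocyte genes 2 were lower and 1 higher, and of 5 tested genes of blood stem and progenitor cells 2 were lower and 1 higher. Ptprc, which encodes the CD45 of the gate, had means of 0.843 ± 1.20 CPM in Sca-1+ and 28.9 ± 14.1 CPM in Sca-1- ECs (SD, n = 4 and 5). Pecam1, which encodes the CD31 of the gate, did not pass, with means of 1399 ± 261 and 836 ± 613 CPM.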
